A study of Mus musculus with 12 samples.

Results

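The unfolded protein response is the programme by which a cell answers a load of unfolded protein in its endoplasmic reticulum. The genes followed here were 10 of its core members: the sensors Ern1 and Atf6, the transcription factors Xbp1, Atf4 and Ddit3, the chaperones and cofactors Hspa5, Hsp90b1, Dnajb9 and Sdf2l1, and the degradation gene Edem1. They were chosen by name. A probe set was taken for a gene where the platform annotation gave that symbol alone, and of several the probe set with the highest mean over all arrays stood for the gene. That gave 26 probe sets for the 10 genes, of 45101 on the array, and 25 of them passed the filter on low signal. All 10 genes were among the 10929 genes tested.

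The response has 3 arms. IRE1, encoded by Ern1, is a kinase and nuclease of the endoplasmic reticulum membrane that cuts an intron out of Xbp1 mRNA, so that the strong transcription factor XBP1 can be made. ATF6 is a membrane-bound factor released by proteolysis, and PERK, encoded by Eif2ak3, slows translation while favouring that of ATF4, which in turn drives Ddit3 (CHOP). In mice, conventional dendritic cells of the type that carries CD103 in the lung are known for steady IRE1 activity and for a dependence on XBP1. An array of this design does not separate spliced from unspliced Xbp1, and activation of ATF6, IRE1, PERK and ATF4 takes place on the protein, so the values below are amounts of message and not activity of the arms.

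Dendritic cells (DC), the cells that carry antigen to T cells, were sorted from the lungs of C57BL/6J male mice aged 8 to 12 weeks. Every mouse had received 100 ng of lipopolysaccharide, a bacterial cell wall component, and 100 ug of ovalbumin, a foreign protein, in 50 ul into the airway 16 h earlier, and no group without this treatment is part of the comparison. Of the 4 populations, a pair is labelled conventional (cDC), either CD103+ or CD11bhi CD14lo, and a pair monocyte-derived (moDC), either CD11bhi CD14hi or CD11bhi Ly6Chi, the last called inf.moDCs. They are written below as CD103+ cDC, as CD14lo cDC, as CD14hi moDC and as Ly6Chi moDC. Each population had 3 arrays, 20 mice went into each replicate, the labelled sort purity was over 93%, and 50 ng of RNA was amplified per sample. The p-values measure the spread between these pooled samples, and no source used here says whether equal replicate numbers stand for shared mice.

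Signals are MAS5 intensities in arbitrary units, and a level is only compared between populations for the same probe set. Differences are on the log2 scale of signal plus 50.0, given as the population named first minus the one named second with the SE of the limma model, and adjusted p-values are Benjamini-Hochberg values over the 10929 genes tested. Fold values come from the same scale and understate the change of dim genes. A difference was called where its adjusted p was under 0.05. The number of arrays limits the precision. The defining markers followed the sort labels: mean Itgae (CD103) signal was 15178 in CD103+ cDC and at most 855 elsewhere, and mean Cd14 was 968 and 1537 in the CD103+ and CD14lo cDC, and 11669 and 10836 in the CD14hi and Ly6Chi moDC. Mean Flt3, the growth factor receptor of conventional DC, was 6749, 2513, 753 and 113 in the same order, and mean Itgam (CD11b) was 50.7, 1115, 1481 and 2188. No Ly6c gene had a probe set with a single symbol, so that label was not checked. The Gapdh 3' to 5' signal ratio, a measure of RNA quality, was 3.26, 1.68 and 3.27 on the CD103+ cDC arrays and between 1.48 and 2.29 on the other 9 arrays, so results that rest on CD103+ cDC replicates 1 and 3 are also given without them. The same ratio for actin was 1.12, 0.97 and 1.03 on the CD103+ cDC arrays and between 0.987 and 1.046 on the other 9. By actin, replicate 1 lay slightly above those 9 arrays and replicate 3 lay among them. Whether RNA quality lay behind the high Gapdh ratios was not tested.

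Promoter sequences of 9 of the 10 genes were matched in RefSeq (mouse build GRCm38.p6), each running over 250 bases before and 50 bases after the first transcribed base, and Atf6 was not matched. Those of Hspa5 and Hsp90b1 are shown because they hold the endoplasmic reticulum stress element, the sequence bound by ATF6 and by XBP1 together with NF-Y, searched here as CCAAT and CCACG with any 9 bases between them, on both strands. Those of Sdf2l1, whose signal moved closely with that of Hsp90b1, and of Ern1, which differed most between the populations, are shown beside them. Capitals mark, on either strand, the fixed letters of that element, the shorter letters CCACG of its second part wherever they occur, and the letters TGACGTG of the unfolded protein response element core. Read on the opposite strand, CCACG appears as CGTGG and CCAAT as ATTGG.
Hspa5, chr2:34771840-34772139, plus strand: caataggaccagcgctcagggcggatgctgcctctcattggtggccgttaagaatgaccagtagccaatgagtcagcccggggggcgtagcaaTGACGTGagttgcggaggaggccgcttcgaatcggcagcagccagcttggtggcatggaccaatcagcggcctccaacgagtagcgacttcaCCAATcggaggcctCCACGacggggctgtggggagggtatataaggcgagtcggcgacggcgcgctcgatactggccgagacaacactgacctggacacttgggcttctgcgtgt
Hsp90b1, chr10:86705395-86705694, minus strand: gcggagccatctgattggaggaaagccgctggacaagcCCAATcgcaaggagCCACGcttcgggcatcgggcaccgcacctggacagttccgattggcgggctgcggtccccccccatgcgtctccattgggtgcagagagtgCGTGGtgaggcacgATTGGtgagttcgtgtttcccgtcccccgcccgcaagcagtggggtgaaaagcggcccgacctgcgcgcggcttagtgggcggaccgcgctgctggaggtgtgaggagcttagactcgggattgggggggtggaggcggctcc
Sdf2l1, chr16:17132334-17132633, minus strand: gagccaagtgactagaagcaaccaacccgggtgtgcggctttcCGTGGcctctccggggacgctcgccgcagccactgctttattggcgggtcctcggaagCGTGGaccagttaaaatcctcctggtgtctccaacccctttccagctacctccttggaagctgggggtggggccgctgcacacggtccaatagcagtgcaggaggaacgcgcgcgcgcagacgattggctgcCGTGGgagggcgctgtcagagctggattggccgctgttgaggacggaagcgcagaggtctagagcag
Ern1, chr11:106487747-106488046, minus strand: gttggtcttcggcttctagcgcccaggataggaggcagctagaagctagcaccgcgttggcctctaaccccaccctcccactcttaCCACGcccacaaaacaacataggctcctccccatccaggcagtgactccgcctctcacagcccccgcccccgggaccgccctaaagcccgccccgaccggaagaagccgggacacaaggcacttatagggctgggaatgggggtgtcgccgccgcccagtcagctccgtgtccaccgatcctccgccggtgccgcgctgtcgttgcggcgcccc
Each window covers the end of the promoter and the first bases of the transcript.

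The full element was present in 2 of the 9 promoters and in 39 of the 32851 mouse promoter windows of the same length (0.119%). The Hspa5 promoter held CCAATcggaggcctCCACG, from -65 to -47 relative to the first transcribed base at 0. Hsp90b1 held it in both orientations, as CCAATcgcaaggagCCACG from -212 to -194 along the gene and, read on the opposite strand, as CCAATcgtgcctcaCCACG from -107 to -89. The letters CCACG, which the full element contains, stood in 7 of the 9 promoters and in 32.8% of all windows, and in Sdf2l1 they occurred 3 times without the rest. The letters TGACGTG occurred in the Hspa5 promoter alone among the 9, from -157 to -151, and in 2.01% of all windows. The compact element ATTGG and CCACG with any 1 base between them (0.0365% of all windows) and the amino acid response element TGATGCAA read by ATF4 (0.895%) were found in none of the 9 windows, on either strand. These matches are descriptions of the letters and do not show binding.

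Among the 10 genes, 5 differed between the 4 populations (limma F test, adjusted p under 0.05), where 51.1% of all genes tested did. The 5 were Ern1, Atf6, Sdf2l1, Hsp90b1 and Xbp1. The largest distance between population means had a median of 0.47 on the log2 scale over the 10 genes and of 0.62 over all genes tested, and Ern1 alone of the 10 had a distance of at least 1. The sensors Ern1 and Atf6 were lower in CD103+ cDC than in each of the 3 other populations, a pattern that 9.95% of all genes tested had. Hspa5 (BiP), the best known target gene of the response, was not called in any comparison. The count of 5 was 2 without CD103+ cDC replicate 3, and 3 without CD103+ cDC replicate 1, Ly6Chi moDC replicate 1 or Ly6Chi moDC replicate 2.

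**Figure D1:**
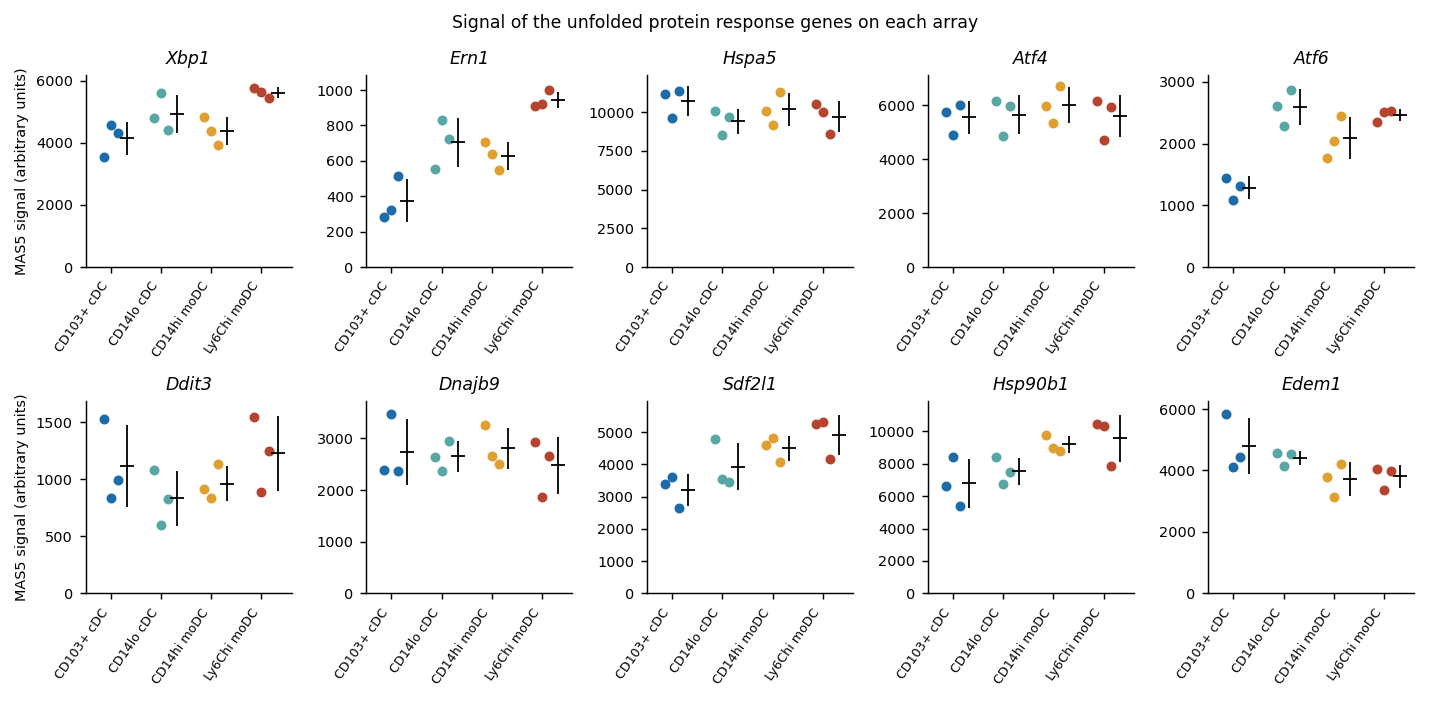
MAS5 signal in arbitrary units on each of the 12 arrays, 1 panel per gene with its own linear axis starting at 0, and the 4 populations from CD103+ cDC on the left to Ly6Chi moDC on the right. Points are arrays, and the black bar beside them is the mean with its SD (n = 3). The 3 CD103+ cDC arrays are the lowest of the 12 for Ern1 and Atf6, while the populations overlap for Hspa5, Atf4, Ddit3 and Dnajb9.

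Ern1 encodes IRE1 alpha, the sensor with kinase and nuclease domains. Its probe set 1437119_at had signals of 284, 325 and 513 on the CD103+ cDC arrays, 556, 833 and 724 on the CD14lo cDC arrays, 704, 637 and 547 on the CD14hi moDC arrays, and 912, 920 and 999 on the Ly6Chi moDC arrays. All 3 CD103+ cDC arrays lay below all 9 others, and all 3 Ly6Chi moDC arrays lay above all 9 others. The means were 374 ± 122 in CD103+ cDC and 705 ± 139.5 in CD14lo cDC, then 629.7 ± 78.7 for CD14hi moDC and 944 ± 47.7 for Ly6Chi moDC (SD, n = 3 each). Against Ly6Chi moDC the log2 difference was -1.26 ± 0.20, 2.40-fold lower in CD103+ cDC (adjusted p = 3.8e-05). It was -0.85 ± 0.20 against CD14lo cDC (1.80-fold lower, adjusted p = 0.0033) and -0.71 ± 0.20 against CD14hi moDC (1.64-fold lower, adjusted p = 0.0089). The middle populations were not told apart, with a log2 difference of 0.14 between CD14lo cDC and CD14hi moDC (95% interval -0.28 to 0.56, adjusted p = 0.72). CD14hi moDC and Ly6Chi moDC did not overlap, yet the difference of -0.55 missed the threshold (adjusted p = 0.064), and it was called without CD103+ cDC replicate 1 or 3, which enter the estimate of the spread (adjusted p = 0.048 and 0.032). In a sorted bulk sample, fewer cells that carry a message and less of it per cell cannot be told apart.

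Atf6 encodes the sensor that is itself a transcription factor once it is cleaved in the Golgi. Its probe set 1453288_at had signals of 1450, 1088 and 1317 in CD103+ cDC and 2617, 2292 and 2868 in CD14lo cDC, and of 1769, 2049 and 2443 in CD14hi moDC and 2349, 2511 and 2525 in Ly6Chi moDC. Again the 3 CD103+ cDC arrays lay below the other 9, but here CD14lo cDC had the highest mean. The log2 difference was -0.99 ± 0.15 against CD14lo cDC (1.98-fold lower in CD103+ cDC, adjusted p = 6.5e-05), -0.68 ± 0.15 against CD14hi moDC (1.60-fold lower, adjusted p = 0.0016) and -0.92 ± 0.15 against Ly6Chi moDC (1.89-fold lower, adjusted p = 5.9e-05). The neighbours at the upper end, CD14lo cDC and Ly6Chi moDC, differed by 0.07 (95% interval -0.25 to 0.39, adjusted p = 0.81). The remaining sensor, Eif2ak3, which encodes PERK, was looked at after its values had been seen: its means were 332 ± 53.2 in CD103+ cDC, of 401 ± 63.5 in CD14lo cDC, of 313 ± 40.1 in CD14hi moDC and of 354 ± 25.6 in Ly6Chi moDC, with no call by the F test (adjusted p = 0.47). Whether the sensors differed from each other in this was not tested.

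Xbp1 is the message that IRE1 cuts. Its probe set 1437223_s_at had signals of 3547, 4571 and 4304 in CD103+ cDC and 4785, 5588 and 4414 in CD14lo cDC, and of 4840, 4389 and 3937 in CD14hi moDC and 5773, 5641 and 5431 in Ly6Chi moDC. The Ly6Chi moDC arrays lay above those of CD103+ cDC and CD14hi moDC without overlap, and the other populations overlapped. In CD103+ cDC it was 1.36-fold lower than in Ly6Chi moDC (log2 difference -0.44 ± 0.13, adjusted p = 0.011), and this was its only call among the 6 pairs. CD14hi moDC differed from Ly6Chi moDC by -0.36 ± 0.13 (adjusted p = 0.075). Without CD103+ cDC replicate 1 the difference from Ly6Chi moDC was -0.34 and no longer called (adjusted p = 0.059).

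Atf4, the transcription factor of the PERK arm, had the smallest distance between population means of the 10 genes by the chosen probe sets, 0.11 on the log2 scale. The probe set 1448135_at had signals of 5753, 4886 and 6032 in CD103+ cDC, of 6174, 4850 and 5964 in CD14lo cDC, of 5989, 5345 and 6709 in CD14hi moDC and of 6160, 4712 and 5939 in Ly6Chi moDC. The populations overlapped throughout, and the log2 difference of CD103+ cDC from Ly6Chi moDC was -0.01 (95% interval -0.31 to 0.29, adjusted p = 0.97). Its other bright probe set, 1438992_x_at, read differently, with 0.54, 0.50 and 0.31 for CD103+ cDC minus CD14lo cDC, CD14hi moDC and Ly6Chi moDC (adjusted p = 0.051, 0.057 and 0.22 over all kept probe sets). When second probe sets stood for the genes, the first of these was called (adjusted p = 0.048). Ddit3, which encodes CHOP, a factor linked to cell death under lasting stress, had means of 1117 ± 361 in CD103+ cDC and 834 ± 241 in CD14lo cDC, and of 960.4 ± 153 in CD14hi moDC and 1227 ± 331 in Ly6Chi moDC. Its arrays overlapped between all populations, and the widest pair, CD14lo cDC and Ly6Chi moDC, differed by -0.53 ± 0.24 without a call (adjusted p = 0.12), while without Ly6Chi moDC replicate 2 the difference was -0.74 and called (adjusted p = 0.045).

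Hspa5 encodes BiP, the chaperone that binds unfolded chains and holds the sensors inactive. Its probe set 1416064_a_at had signals of 11168, 9649 and 11394 in CD103+ cDC, of 10087, 8520 and 9668 in CD14lo cDC, of 10068, 9203 and 11307 in CD14hi moDC and of 10526, 10033 and 8589 in Ly6Chi moDC. All 4 populations overlapped. The intervals were narrow: CD103+ cDC minus Ly6Chi moDC was 0.14 on the log2 scale with a 95% interval of -0.12 to 0.41 (adjusted p = 0.36), which leaves out the size of the Ern1 and Atf6 differences. Dnajb9, a BiP cofactor (ERdj4) that depends on XBP1 in mouse cells, had means of 2737 ± 634 in CD103+ cDC and 2651 ± 292 in CD14lo cDC, and of 2808 ± 395 in CD14hi moDC and 2480.2 ± 551 in Ly6Chi moDC, and was not called by the F test (adjusted p = 0.80).

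Sdf2l1, a partner of the BiP chaperone cycle, was lower in CD103+ cDC than in both monocyte-derived populations. Its probe set 1418206_at had signals of 3378, 3617 and 2658 in CD103+ cDC, of 4777, 3553 and 3456 in CD14lo cDC, of 4604, 4827 and 4064 in CD14hi moDC and of 5240, 5308 and 4181 in Ly6Chi moDC. CD103+ cDC did not overlap with either monocyte-derived population and overlapped with CD14lo cDC. The log2 difference was -0.61 ± 0.16 from Ly6Chi moDC (1.52-fold lower, adjusted p = 0.0036) and -0.49 ± 0.16 from CD14hi moDC (1.40-fold lower, adjusted p = 0.020). The second of these missed the threshold without CD103+ cDC replicate 3 (-0.36, adjusted p = 0.11), CD14hi moDC replicate 1 (-0.47, adjusted p = 0.057) or CD14hi moDC replicate 2 (-0.43, adjusted p = 0.079), and with arrays centred at their median (-0.39, adjusted p = 0.062). CD14lo cDC minus Ly6Chi moDC, not called with all arrays, was called without CD14lo cDC replicate 1 (-0.47, adjusted p = 0.047).

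Hsp90b1 encodes GRP94, the HSP90 chaperone of the endoplasmic reticulum that folds Toll-like receptors and integrins. Its probe set 1438040_a_at had signals of 6601, 8407 and 5392 in CD103+ cDC and 8398, 6740 and 7490 in CD14lo cDC, and of 9804, 8992 and 8790 in CD14hi moDC and 10473, 10354 and 7883 in Ly6Chi moDC. CD103+ cDC lay below CD14hi moDC without overlap, while CD103+ cDC replicate 2 lay above Ly6Chi moDC replicate 3. The log2 difference was -0.45 ± 0.15 from CD14hi moDC (1.37-fold lower, adjusted p = 0.027) and -0.50 ± 0.15 from Ly6Chi moDC (1.42-fold lower, adjusted p = 0.012). The other probe set, 1415889_a_at, did not show it, with -0.06 (adjusted p = 0.76) and -0.09 (adjusted p = 0.62) for the same pairs when every kept probe set was tested on its own. The first call did not hold without CD103+ cDC replicate 1 or 3 (adjusted p = 0.064 and 0.16) or CD14hi moDC replicate 1 or 2 (adjusted p = 0.086 and 0.057), and the second without CD103+ cDC replicate 3 or Ly6Chi moDC replicate 1 or 2 (adjusted p = 0.082, 0.060 and 0.052).

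Edem1, which takes misfolded glycoproteins out of the folding cycle, ran the other way. Its probe set 1424065_at had signals of 5834, 4124 and 4449 in CD103+ cDC, of 4565, 4134 and 4528 in CD14lo cDC, of 3787, 3125 and 4226 in CD14hi moDC and of 4054, 3369 and 3998 in Ly6Chi moDC. Both conventional populations lay above Ly6Chi moDC without overlap, but the 2 cDC and the 2 moDC populations overlapped as sets. No pair of populations was called, and the mean of both cDC minus the mean of both moDC was 0.29 ± 0.11 (adjusted p = 0.036). The second probe set, 1451218_at, gave 0.01 for this difference (adjusted p = 0.98) and, against CD14lo cDC, was lower in CD103+ cDC (-0.52, adjusted p = 0.021), opposite in sign to the 0.11 of the first. CD103+ cDC minus CD14hi moDC was 0.36 ± 0.15 (adjusted p = 0.066) and was called with centred arrays (0.46, adjusted p = 0.029), without CD103+ cDC replicate 2 (0.46, adjusted p = 0.029) and without CD14hi moDC replicate 3 (0.46, adjusted p = 0.038). CD103+ cDC minus Ly6Chi moDC was 0.32 ± 0.15 (adjusted p = 0.088) and was called with centred arrays (0.40, adjusted p = 0.046) and without CD103+ cDC replicate 2 (0.42, adjusted p = 0.038). The call between both cDC and both moDC was lost when any of 6 single arrays was left out, among them CD103+ cDC replicate 1 (0.21, adjusted p = 0.10) and CD14hi moDC replicate 2 (0.23, adjusted p = 0.11), the others being CD14lo cDC replicates 1 and 3, CD14hi moDC replicate 1 and Ly6Chi moDC replicate 2 (0.24 to 0.30, adjusted p = 0.051 to 0.094).

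**Figure D2:**
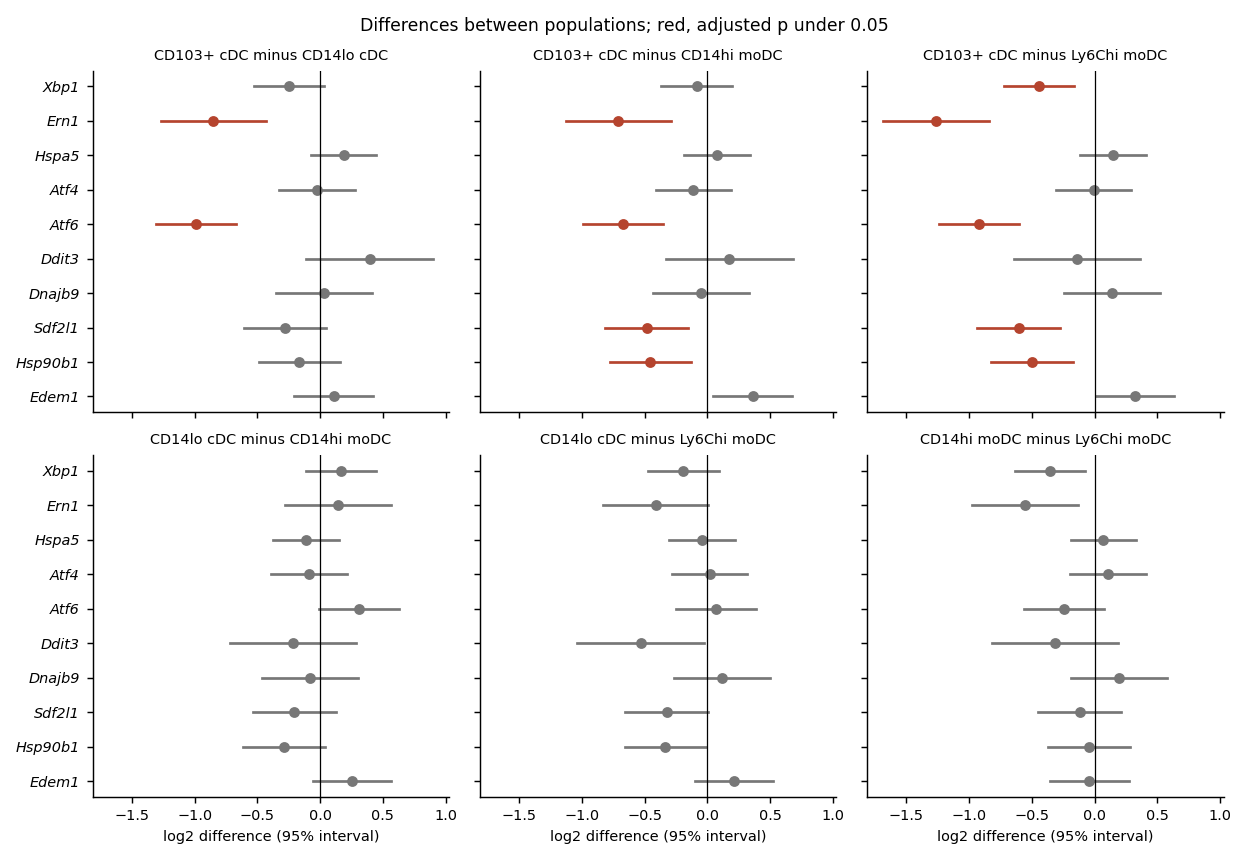
Log2 difference of each gene, the first named population minus the second, in the 6 pairs of populations, with 95% intervals from the limma model (3 arrays a population). Red marks an adjusted p under 0.05. The calls stand only in the 3 upper panels, where CD103+ cDC is one side, and all lie left of 0.

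By pair, of the 10 genes 0 had higher and 2 lower signal in CD103+ cDC than in CD14lo cDC, where limma called 13.4% of all genes tested higher and 15.3% lower. At an unadjusted p under 0.05 the counts were the same. Against CD14hi moDC 0 were higher and 4 lower, with a background of 16.9% and 20.3%. Against Ly6Chi moDC 0 were higher and 5 lower, with a background of 23.2% and 24.3%. The count of 4 was 2 without CD103+ cDC replicate 3, CD14hi moDC replicate 1 or CD14hi moDC replicate 2. In both of these last pairs Edem1 alone was higher at an unadjusted p under 0.05. The median log2 difference of the 10 genes was -0.10, -0.10 and -0.29 in these 3 pairs, against -0.03, -0.01 and -0.02 over all genes tested. The 3 pairs share the CD103+ cDC arrays.

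Among the 3 CD11bhi populations no gene was called. Of the 10, 0 were called between CD14lo cDC and CD14hi moDC (16.2% of all genes tested), between CD14lo cDC and Ly6Chi moDC (25.2%), or between CD14hi moDC and Ly6Chi moDC (18.2%) by limma. At an unadjusted p under 0.05 the counts were 0, 2 and 2, namely Ddit3 and Hsp90b1 in the second pair and Xbp1 and Ern1 in the third, all lower in the population named first. For both cDC minus both moDC, 1 gene was higher and 4 were lower, where 20.8% and 20.7% of all genes tested were. Without CD14hi moDC replicate 2 or Ly6Chi moDC replicate 2, 3 genes were called in place of 5. Such a mean can be called where a single population differs, as for Atf6, which was called lower in the cDC (-0.30 ± 0.11, adjusted p = 0.029) although CD14lo cDC was its highest population. The Atf6 call was lost without CD103+ cDC replicate 2, CD14lo cDC replicate 2, CD14hi moDC replicate 2 or 3, or Ly6Chi moDC replicate 2 or 3 (adjusted p = 0.050 to 0.089). For Ern1 this difference was -0.56 ± 0.14 (adjusted p = 0.0035), for Sdf2l1 -0.41 ± 0.11 (adjusted p = 0.0062) and for Hsp90b1 -0.39 ± 0.11 (adjusted p = 0.0070).

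Other probe sets of the same genes were read as a check. For Ern1, all 5 probe sets had negative differences of CD103+ cDC from each of the 3 others. Against Ly6Chi moDC 4 of the 5 were called, the exception being the dim 1450176_at (-0.57, adjusted p = 0.054), with a mean of 88.4 over the 12 arrays. Among the 4, 1431886_at was about as dim, with a mean of 99.4. Its CD103+ cDC mean of 42.8 ± 32.8 lay under the lowest array median, 72.4, so its calls add little. Beside the chosen one, 1421240_at was also called against CD14lo cDC and CD14hi moDC, and 1431886_at against CD14hi moDC. All 3 Atf6 probe sets were called against CD14lo cDC and against Ly6Chi moDC, and against CD14hi moDC 1435444_at missed the threshold (-0.47, adjusted p = 0.095). All 4 Xbp1 probe sets were called lower in CD103+ cDC than in Ly6Chi moDC, with log2 differences of -0.44 to -0.85. Hspa5 had a further, dim probe set, 1447824_x_at with a mean of 120 over the 12 arrays, that was higher in CD103+ cDC than in CD14hi moDC (0.73, adjusted p = 0.022) and Ly6Chi moDC (0.64, adjusted p = 0.033), which neither of its bright probe sets showed. The second Ddit3 probe set, 1443897_at, had differences of -0.07, -0.25 and -0.06 in the 3 pairs, none called, against 0.39, 0.18 and -0.14 for the chosen one.

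**Figure D3:**
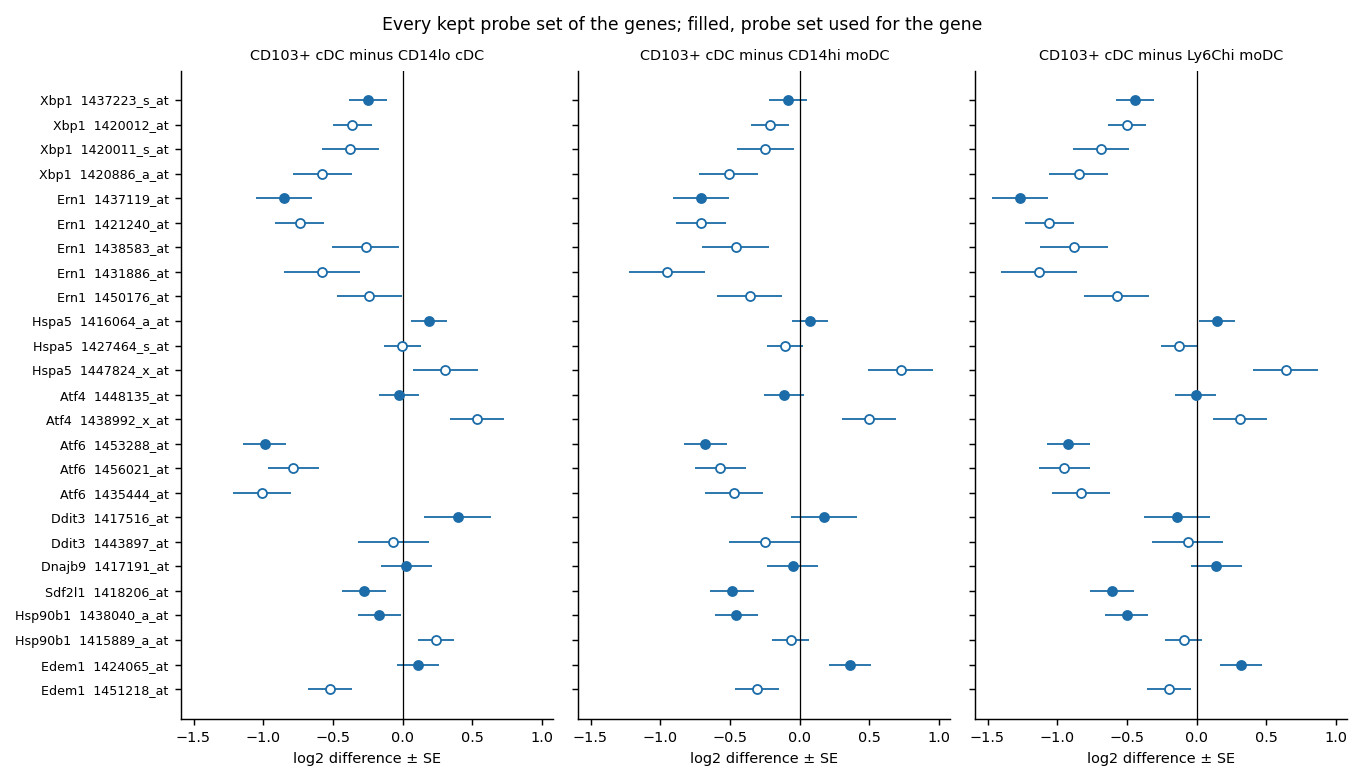
Log2 difference ± SE of every kept probe set of the 10 genes for CD103+ cDC minus each other population. Filled points are the probe sets used for the genes and open points the others. The Ern1, Atf6 and Xbp1 probe sets all lie left of 0, while those of Hspa5, Atf4, Ddit3, Hsp90b1 and Edem1 do not share a side in every panel.

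The Gapdh ratio, highest in CD103+ cDC at 2.74 ± 0.91, against 1.85 ± 0.39 for CD14lo cDC, 1.68 ± 0.14 for CD14hi moDC and 1.66 ± 0.22 for Ly6Chi moDC (SD, n = 3), moved with some of the genes and not with others. Over the 12 arrays, which share populations, the correlation of its log2 with log2 signal was -0.88 for Hsp90b1 and -0.81 for Sdf2l1, and within populations it was -0.88 and -0.64. For Ern1 and Atf6 it was -0.47 and -0.49 over all arrays but 0.39 and 0.43 within populations. When CD103+ cDC replicates 1 and 3 were left out, the remaining array being assumed to vary like the others, Ern1 and Atf6 kept their calls against all 3 populations, and so they did with the ratio as a covariate. With the covariate the Ern1 difference from Ly6Chi moDC was -1.46 and that of Atf6 was -1.07. The calls of the other genes were lost under both. Without the arrays and with the covariate, the difference from Ly6Chi moDC was -0.43 (adjusted p = 0.12) and -0.34 (adjusted p = 0.15) for Sdf2l1, -0.17 (adjusted p = 0.51) and -0.12 (adjusted p = 0.55) for Hsp90b1, and -0.29 (adjusted p = 0.22) and -0.36 (adjusted p = 0.11) for Xbp1. The Edem1 difference between both cDC and both moDC was 0.19 (adjusted p = 0.24) and 0.20 (adjusted p = 0.23).

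**Figure D4:**
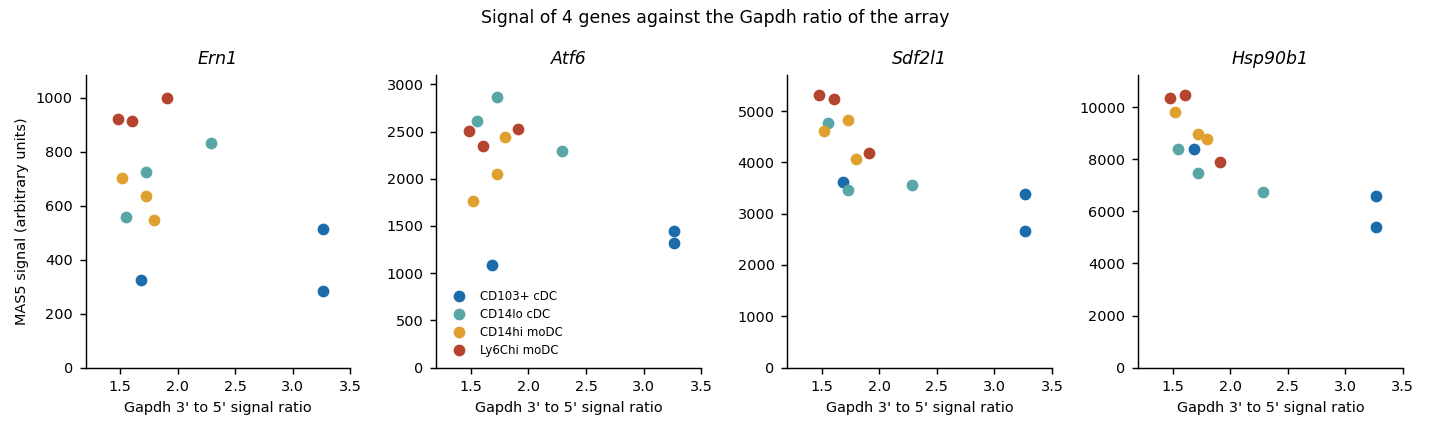
MAS5 signal in arbitrary units of 4 genes against the Gapdh 3' to 5' signal ratio of the same array, 1 point per array coloured by population. For Hsp90b1 and Sdf2l1 the arrays with a ratio above 3 have the lowest signals. The CD103+ cDC array with a ratio of 1.68 lies at 8407 for Hsp90b1, and for Sdf2l1 at 3617, below every moDC array. For Ern1 and Atf6 that array is as low as the other CD103+ cDC arrays.

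Plasma cells hold large amounts of this machinery, and the summed signal of 10 measured B and plasma cell markers ran from 1429 to 2176 in CD103+ cDC and 1941 to 3873 in CD14lo cDC, then 2196 to 2644 in CD14hi moDC and 2915 to 4230 in Ly6Chi moDC. It was thus lowest where Ern1 was lowest and highest where Ern1 was highest. Of its members Ighm had the highest mean, at 925, 1377, 901 and 1304 in that order of populations. Mean Jchain was 126, 80.1, 33.2 and 52.9, and Mzb1, Tnfrsf17 and Pou2af1 did not pass the filter. Prdm1 and Sdc1, which myeloid cells also express, had their highest means in Ly6Chi moDC, at 1089 and 387. The summed signal of 9 neutrophil markers, led by S100a9, was 396 to 1898 in CD103+ cDC and 966 to 1349 in CD14lo cDC, then 1041 to 2207 in CD14hi moDC and 4203 to 4426 in Ly6Chi moDC. Of these markers Cxcr2, Ngp, Camp, Elane and Mpo did not pass the filter. S100a8, S100a9, Csf3r and Mmp8 did, with their highest means in Ly6Chi moDC, at 1257, 1214, 1533 and 160. For 11 lung epithelium markers, led by Scgb1a1, the summed signal was 7397 to 12392 in CD103+ cDC and 4611 to 7676 in CD14lo cDC. It was 3210 to 4553 in CD14hi moDC and 3080 to 4232 in Ly6Chi moDC. Krt8 and Krt18 did not pass the filter. Of the members that did, all but Cdh1 had their highest mean in CD103+ cDC, with Scgb1a1 and Epcam at 4857 and 2526. Cdh1 had its lowest mean there, at 125, and its highest in CD14lo cDC, at 2470. For 7 plasmacytoid DC markers, led by Bst2, the sums were 3345 to 4332 for CD103+ cDC, 3578 to 5528 for CD14lo cDC, 5730 to 5812 for CD14hi moDC and 6502 to 7362 for Ly6Chi moDC. They too were lowest and highest where Ern1 was, but they followed Bst2, with means of 2710, 3585, 4931 and 6064 in that order. Siglech, Ccr9, Pacsin1 and Ly6d had their highest means in CD103+ cDC, at 344, 220, 225 and 87.6. Cox6a2 and Klk1 had their lowest there, at 175 and 172. For 8 NK cell markers the sums were 3387 to 4054 for CD103+ cDC and 7366 to 8462 for CD14lo cDC. They were 1938 to 2463 for CD14hi moDC and 1495 to 1860 for Ly6Chi moDC. These sums were highest where Atf6 was highest, but they followed Klrd1, with means of 2586, 6418, 1036 and 481 in that order. Prf1, Gzma and Klre1 had their highest means in CD14lo cDC too, at 1159, 88.8 and 181. Ncr1, Nkg7, Eomes and Gzmb were below the filter. The part of these cells in the differences was not tested.

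How the genes moved among themselves is described here without a test, since arrays of one population are not independent points. Sdf2l1 and Hsp90b1 had a correlation of 0.93 over the 12 arrays and 0.85 within populations, and over all 12 arrays this was the highest value of any pair of the 10 genes. Within populations alone Ddit3 and Edem1 reached the same, 0.85, and Xbp1 and Atf6 were opposed at -0.93. Ern1 and Xbp1 had 0.81 and 0.53. Ern1 and Atf6 had 0.74 over all arrays but -0.32 within populations. Atf4 and its target Ddit3 had 0.60 over all arrays and 0.83 within populations. For Atf4, Ddit3 and Edem1, replicate 2 had the lowest signal in every population. The part of this shared shift in their within-population values was not tested. Within populations, Hsp90b1 and Sdf2l1 also had correlations of -0.88 and -0.64 with the log2 Gapdh ratio. Among all genes tested, those whose log2 signal was most like that of Ern1 over the 12 arrays were Lpcat3 (0.963), Emp1 (0.961) and Tmem185b (0.955), and for Atf6 they were Galnt6 (0.964), Tgm2 (0.949) and Vdr (0.948). For Xbp1 they were Wdr61 (0.949), Sf3b4 (0.935) and Tmem185a (0.929). The highest value was 0.953 for Sdf2l1, with Fkbp2, and 0.958 for Hsp90b1, with Hcls1. For the 5 genes not called by the F test the highest were Zfp36 and AA467197 with Hspa5 (0.895 and 0.910), Fem1b with Atf4 (0.872), Pgk1 with Ddit3 (0.884), Uba6 with Dnajb9 (0.845) and Clcf1 with Edem1 (0.917).

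Beyond the 10 genes, 105 further genes of the pathway were listed in 6 groups, of which 91 were tested and 46 (50.5%) differed between the populations by the F test, close to the 51.1% of all genes tested. The counts against Ly6Chi moDC that follow stand beside a background of 23.2% called higher and 24.3% called lower. The list of the PERK and ATF4 arm held 17 tested genes. In CD103+ cDC 2 of them were higher and 9 lower than in Ly6Chi moDC. The median log2 difference of this list was -0.38, against -0.02 over all genes tested. It was -0.30 with centred arrays, -0.45 without CD103+ cDC replicates 1 and 3, and -0.58 with the Gapdh ratio as a covariate. Cebpb, a transcription factor of myeloid cells that ATF4 also drives, had means of 469 ± 140 in CD103+ cDC, of 3495 ± 434 in CD14lo cDC, of 6714 ± 850 in CD14hi moDC and of 11719.5 ± 162 in Ly6Chi moDC (SD, n = 3 each), 23.2-fold lower in CD103+ cDC than in Ly6Chi moDC (adjusted p = 2.6e-13). Nupr1, a stress-induced nuclear protein, was 14.4-fold lower (adjusted p = 2.9e-10) and Slc7a11, the cystine transporter chain, 6.75-fold lower (adjusted p = 3.8e-07). Phgdh, the first enzyme of serine synthesis, was lower than in Ly6Chi moDC (2.05-fold, adjusted p = 0.0015) but called higher than in CD14hi moDC (adjusted p = 3.5e-05). Its CD14hi moDC signals of 75.7 to 134 lay around the array medians of 72.4 to 109, so no fold is given for that pair. Some targets of the arm ran in opposite directions, chosen here after their values were seen. Chac1, which breaks down glutathione, was called higher in CD103+ cDC than in Ly6Chi moDC, with mean signals of 403 and 60.6. Its Ly6Chi moDC signals of 30.5 to 98.3 lay around the array medians of 72.4 to 109, so no size of the difference is given. Its CD103+ cDC signals, 325 to 463 on 3 arrays, were enough by themselves to pass the filter. The asparagine synthetase gene Asns was lower in CD103+ cDC than in Ly6Chi moDC by a log2 difference of -1.93 ± 0.23 (adjusted p = 1.4e-06), with mean signals of 116 and 605. Cebpb is also a general factor of the monocyte lineage and answers to lipopolysaccharide.

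Of 23 chaperones and folding enzymes, 3 were higher and 9 lower in CD103+ cDC than in Ly6Chi moDC, with a median log2 difference of -0.28. That median was -0.14 without CD103+ cDC replicates 1 and 3 and -0.05 with the Gapdh ratio as a covariate. The disulfide isomerase gene Pdia4 was 2.98-fold lower, at 1019 ± 362 against 3091 ± 856 (adjusted p = 1.3e-05). Other disulfide enzymes lay on either side: Pdia6, P4hb and Ero1a, chosen after their values were seen, were 2.10-fold, 1.67-fold and 1.92-fold lower. Pdia5 was 2.16-fold higher (adjusted p = 0.00053), the reductase gene Dnajc10 2.21-fold higher (adjusted p = 2.2e-05), and the oxidase gene Ero1b 1.94-fold higher (adjusted p = 3.6e-05). Among 14 genes that remove misfolded proteins, 2 were higher and 2 lower in the same pair, and the median was -0.03, turning to 0.01 with quantile normalization and 0.05 with centred arrays. Herpud1, which gathers the degradation machinery in the membrane, stood out with means of 5116 ± 877 in CD103+ cDC and 3364 ± 267 in CD14lo cDC, and of 2756 ± 63.4 in CD14hi moDC and 1772 ± 489.7 in Ly6Chi moDC, 2.88-fold higher in CD103+ cDC than in Ly6Chi moDC (adjusted p = 7.1e-07). Os9, a lectin that binds misfolded glycoproteins, was 1.44-fold lower (adjusted p = 0.0063). Syvn1, the ubiquitin ligase HRD1, was called by the F test (adjusted p = 0.030), with a difference of -0.22 from Ly6Chi moDC that was not (adjusted p = 0.36).

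Translocation and transport, with 24 tested genes, had 2 higher and 11 lower in CD103+ cDC than in Ly6Chi moDC and a median of -0.36, which was -0.19 both without CD103+ cDC replicates 1 and 3 and with the covariate. Rpn2, a subunit of the enzyme that attaches sugar chains, was 2.02-fold lower (adjusted p = 3.8e-05), Ssr4 of the translocon 1.98-fold lower (adjusted p = 3.2e-05) and Spcs1 of the signal peptidase 1.74-fold lower (adjusted p = 3.7e-05). The coat gene Sec24d, of vesicles that leave the endoplasmic reticulum, was 1.60-fold higher (adjusted p = 0.0040). Of 8 other sensors and processing enzymes 1 was higher and 3 were lower: Creb3 was 1.52-fold higher, and the ATF6 paralogue Atf6b and the ATF6-cleaving protease Mbtps2 were 1.52-fold and 2.03-fold lower. Creb3l1 was called lower too, but its CD103+ cDC signals of 32.1 to 55.2 lay under every array's median, so no fold is given. Of 5 known substrates of IRE1-dependent decay 1 was higher and 3 were lower. The lower ones were the lysosomal gene Hgsnat (2.41-fold), the growth factor receptor gene Pdgfrb, and Itgb2, an integrin chain named after its value was seen. Pdgfrb had signals of 17.6 to 24.4 in CD103+ cDC, under every array's median, and passed the filter through the other populations, so no fold is given. The higher one was Tapbp, which loads peptides onto MHC class I, 1.36-fold higher than in Ly6Chi moDC (adjusted p = 0.010) and called against the other populations too. With quantile normalization, however, no gene of this list was called higher than in Ly6Chi moDC or CD14lo cDC. With the Gapdh ratio as a covariate none was called higher in CD103+ cDC than in any other population.

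**Figure D5:**
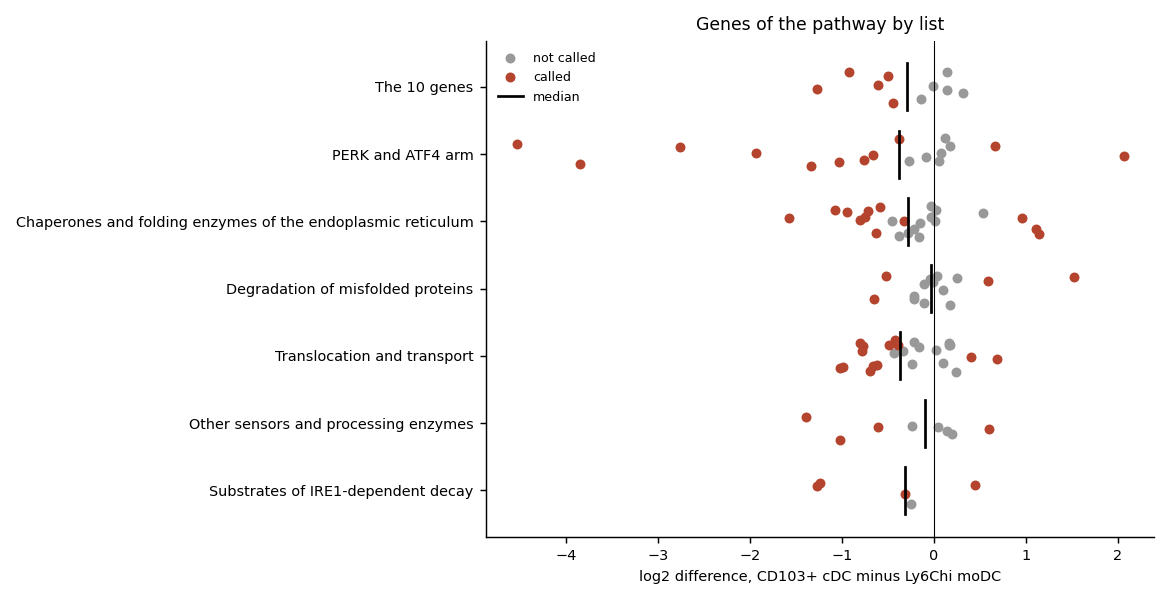
Log2 difference, CD103+ cDC minus Ly6Chi moDC, of the 10 genes and of the tested genes of 6 further lists of the pathway. Points are genes, red where the adjusted p was under 0.05, and the black bar is the median of the list. With all arrays, the medians of the PERK and ATF4 arm (-0.38), the translocation list (-0.36) and the chaperones (-0.28) lie left of 0, and that of the degradation list is -0.03. These medians moved with the settings, as given in the text.

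The other pairs of CD103+ cDC share its arrays. Against CD14lo cDC the higher and lower genes were 2 and 4 of 17 for the PERK and ATF4 arm and 2 and 3 of 23 for chaperones. They were 1 and 0 of 14 for degradation, and 1 and 8 of 24 for translocation. Of all genes tested 13.4% were called higher and 15.3% lower in that pair. Against CD14hi moDC the list counts were 3 and 5, 3 and 6, 1 and 0, and 3 and 8, where 16.9% and 20.3% of all genes tested were called. The translocation counts depended on the setting. With centred arrays they were 2 and 2 against CD14lo cDC and 4 and 4 against CD14hi moDC. Of all genes tested 3173 and 4176 were called in either direction in these pairs. With the Gapdh ratio as a covariate the translocation counts were 1 and 1 in both, where 2331 and 2787 of all genes were called. The translocation medians were -0.19 and -0.30 with all arrays, and -0.15 in both pairs without CD103+ cDC replicates 1 and 3. The chaperone medians were -0.12 and -0.15 with all arrays, and 0.04 and -0.06 without the 2 arrays. The chaperone counts against CD14hi moDC were 3 and 4 with centred arrays and 3 and 1 with the covariate. Against CD14lo cDC the chaperone counts were 3 and 2 with centred arrays and 2 and 0 with the covariate. Without CD103+ cDC replicates 1 and 3, the counts against Ly6Chi moDC were 1 and 7 for the PERK and ATF4 arm, 3 and 3 for chaperones, 1 and 1 for degradation, and 0 and 7 for translocation, while 3660 of all genes tested were called in either direction. Cebpb, Nupr1, Slc7a11, Pdia4, Pdia5, Dnajc10, Ero1b, Herpud1, Rpn2, Ssr4 and Spcs1 kept their calls there, and Phgdh, Sec24d, Os9, Creb3, Atf6b, Tapbp and Pdgfrb did not (adjusted p = 0.052 to 0.33). Some of the lost differences were nearly as large with the 1 array left, such as -0.81 for Phgdh, 0.59 for Sec24d and -0.41 for Os9, against -1.03, 0.68 and -0.52 with all arrays.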

How the data were processed

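The deposited values are array intensity signals per probe set from Affymetrix mouse genome arrays, 12 in all, that the authors computed with MAS5, per the submitters' processing notes; no source used here gives the MAS5 version. Each array's mean without the outer 2% at each end was 500.003, and array medians ran from 72.4 to 109. Signals were taken to log2 after adding 50.0, which is 10% of that trimmed mean. The 64 control probe sets were left out, 25138 probe sets whose signal was over the array's median on at least 3 of 12 arrays were kept, and the probe set with the highest mean stood for each of 10929 genes. Of 45101 probe sets, 34958 had 1 symbol in the platform annotation. The 4 populations were fitted together with limma 3.58.1 (R 4.3.3; lmFit, eBayes with an intensity trend, 8 residual degrees of freedom), two-sided, with Benjamini-Hochberg adjustment over the genes tested. Calls used an adjusted p under 0.05. The code was tested on simulated data.

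Named genes were the 10 genes, up to 4 genes per pathway list with an F test call and the widest means, the sort and cell type markers of highest mean, and the 3 genes most like each of the 10; Eif2ak3, Itgb2, Chac1, Asns, Pdia6, P4hb and Ero1a were added after their values were seen. The genes and lists were chosen with earlier results of these data known. Alternatives were quantile normalization, median centring, other pseudocounts and filters, other probe set rules, no intensity trend, only the arrays compared, a replicate block, each array left out, and, chosen after seeing the data, 2 settings on the Gapdh ratio and a test of every kept probe set. Arrays of a population correlated at 0.973 to 0.983 and no pair looked like a repeated deposit. Figures were drawn with matplotlib 3.10.9.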

Additional observations from a re-analysis of the deposited data

How the results depend on the processing

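Of 16 called differences of the 10 genes (pairs of populations and both cDC minus both moDC), 7 kept their call under every alternative run: the 4 of Ern1, and those of Atf6 against each other population. For CD103+ cDC minus Ly6Chi moDC, Ern1 ranged from -1.49 to -0.98 (highest adjusted p 0.00035) and Atf6 from -1.14 to -0.81 (0.00046); the narrowest margin was Ern1 against CD14hi moDC (-0.93 to -0.55, highest adjusted p 0.0499). Of 54 differences that were not called, 7 gained a call under some alternative, and 0 called differences changed sign. Counts of called genes moved more, and the cause was not tested. Using the second probe set gave 4 genes in place of 2 for CD103+ cDC minus CD14lo cDC, and 3 in place of 5 for both cDC minus both moDC. Over all genes the first pair then had 2826 calls, from 1466 higher and 1675 lower. The second comparison had 4231, from 2274 higher and 2263 lower. With the Gapdh ratio as a covariate, chosen after seeing the data, 2 genes were called in place of 4 against CD14hi moDC. Calls over all genes tested fell as well, to 2787 from 1851 higher and 2215 lower. Against Ly6Chi moDC it gave 2 in place of 5, and over all genes 4074, from 2534 higher and 2658 lower. It also gave 2 in place of 5 for both cDC minus both moDC (3631 over all genes, from 2274 higher and 2263 lower) and by the F test. Leaving out CD103+ cDC replicates 1 and 3, also chosen after seeing the data, left 1 array of that population. The median of the 10 genes was then -0.15 against CD14hi moDC and -0.24 against Ly6Chi moDC. For CD14hi moDC minus Ly6Chi moDC, where 0 genes were called, the larger pseudocount, the fit of only the arrays compared and leaving out the 2 arrays gave 1 each (Ern1). The F test gave 3 in place of 5 with centred arrays, without the filter and without the intensity trend. Over all genes the replicate numbers did not pair the samples by the rule used (correlations of deviations -0.106 to 0.236, 8 of 18 over 0.1), although replicate 2 was the lowest of 3 in all 4 populations for Atf4, Ddit3 and Edem1; with the replicate block, Edem1 gained a call for CD103+ cDC minus CD14hi moDC (0.36, adjusted p = 0.037), 1 gene (Ddit3, -0.53, adjusted p = 0.030) was called for CD14lo cDC minus Ly6Chi moDC in place of 0, and no other count moved by over 1.5 times. Leaving out each array in turn gave the following counts, with those over all 10929 genes in brackets. CD103+ cDC minus CD14lo cDC had 2 to 2 (2513 to 3141). Against CD14hi moDC there were 2 to 5 (3471 to 4143), and against Ly6Chi moDC 4 to 6 (4668 to 5238). CD14lo cDC minus CD14hi moDC had 0 to 0 (1303 to 1850), and CD14lo cDC minus Ly6Chi moDC 0 to 1 (2285 to 2827). CD14hi moDC minus Ly6Chi moDC had 0 to 1 (1507 to 2087), and both cDC minus both moDC 3 to 5 (4170 to 4596). The F test gave 2 to 5, and no count over all genes is given for it here. MAS5 signals carry no detection calls in the sources used here, so dim probe sets were judged by the filter alone.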
